A study of Danio rerio with 4 samples.

Results

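The genes of this account encode secreted proteins of the extracellular matrix, namely fibronectin (fn1a, fn1b), sparc, the small leucine-rich proteoglycans lumican (lum) and decorin (dcn), the periostins (postna, postnb), tenascin C (tnc), thrombospondin 4 (thbs4b) and the periostin relative tgfbi. They were chosen by symbol with earlier results of these data known, and all 10 were found among the 32057 genes of the count tables. RNA was taken from whole zebrafish embryos at 72 h post fertilization (hpf), 2 libraries being from nexn-/- and 2 from nexn+/+ embryos. Each library is a pool of 25 embryos. The nexn-/- embryos are homozygous for a CRISPR/Cas9-induced frameshift deletion in exon 2 of nexn, the gene of the Z-disk protein Nexilin, and nexn+/+ embryos are wild type at this locus. Each genotype had its own parents, as adults of 1 genotype were crossed with each other. According to the study, these adults descended from a heterozygous pair, and the genotypes were housed in separate tanks. Genotype therefore cannot be told apart from the parentage of the pools or the tank of the parents.

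Fibronectin is a large adhesive glycoprotein that cells assemble into fibrils through integrins, and in zebrafish it is needed for somite boundaries and for the migration of the heart precursors to the midline. Matricellular proteins such as Sparc, tenascin C, thrombospondins and periostins are secreted into the same matrix but act mainly on how cells attach and how collagen is laid down, rather than bearing load. Small leucine-rich proteoglycans bind collagen fibrils and set their spacing and thickness. The comparison asks whether transcripts of these proteins differ in embryos deficient in Nexilin, an intracellular anchor of striated muscle. No sequence of these genes was used here.

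The depth was between 19413597 and 21956272 estimated counts per library. The targeted gene nexn was at 40.2 and 51.0 CPM (counts relative to the TMM-scaled library size) in the nexn-/- pools, against 96.3 and 75.4 CPM in the nexn+/+ pools. This gave a log2(FC) of −0.91 (SE 0.168, adjusted p of 0.00737 by edgeR). Reads from the transcript outside the deletion are still counted, and qPCR in the study found nexn mRNA unaltered in nexn-/- embryos. The study's own sequencing analysis also gave a lower value for nexn in nexn-/- embryos, although its text calls the level unaltered. Among all tested genes 13.9% were called lower by the limits below, so the level of nexn is no check of the labels. Here and below, log2(FC) is nexn-/- over nexn+/+, SE is its standard error, and p-values from the quasi-likelihood test of edgeR are adjusted after Benjamini and Hochberg over the 20312 genes with enough counts for a test. Called genes had an adjusted p below 0.05 together with a log2(FC) beyond 0.5 in either direction. Between replicates, genes differed by a median of 0.124 (nexn-/-) and 0.202 (nexn+/+) on the log2 scale, regardless of sign. Since the labels do not say how the pools were separated beyond calling them biological replicates, the p-values measure the spread between these libraries only.

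Transcripts of 9 of the 10 matrix genes were higher in nexn-/- embryos, and sparc was not called. For comparison, 16.7% of all tested genes were called higher and 13.9% lower. For all 10 genes both nexn-/- libraries lay above both nexn+/+ libraries, an order found for 36.4% of tested genes. The median log2(FC) of the 10 genes was 1.16, against 0.02 for all genes tested, and 6 of the 10 had a log2(FC) above 1. No test of the genes as a set was run, because they were chosen with earlier results known. All 10 passed the low-count filter and all had a mean of at least 10 CPM. Among tested genes of that level, a limit chosen after the data were seen, 13.5% were called higher and 21.2% lower, both nexn-/- libraries were above in 27.9%, and the median log2(FC) was −0.13. Genes called higher made up 54.5% of all calls, a share of 70.2% when scaled by library size alone, 64.9% by the upper quartile and 77.6% by rpl13, the reference gene of the qPCR. In whole embryos, a change in the number of cells of a type and a change in RNA per cell cannot be told apart.

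**Figure D1:**
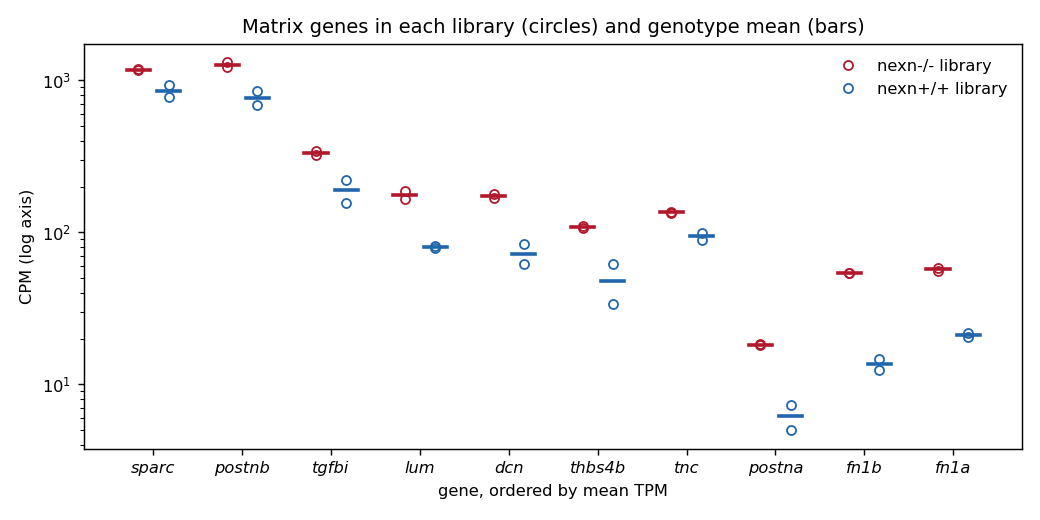
CPM of the 10 matrix genes in each library, on a log axis, with nexn-/- libraries (red) left of nexn+/+ libraries (blue) and bars at the mean of each genotype. Both nexn-/- circles lie above both nexn+/+ circles for every gene, with the widest gap for fn1b and the narrowest for sparc, whose lowest nexn-/- library was 1.25-fold above its highest nexn+/+ library.

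Both fibronectin genes rose. Expression of fn1b (ENSDARG00000006526) was 53.8 and 54.2 CPM in the nexn-/- pools, against 14.8 and 12.5 CPM in the nexn+/+ pools. Its log2(FC) of 1.99 was the largest among the 10 genes (SE 0.124, adjusted p of 0.000685 by edgeR). The lowest nexn-/- library was 3.64-fold above the highest nexn+/+ library, whereas the nexn+/+ replicates differed 1.18-fold. The paralog fn1a (ENSDARG00000019815), whose loss keeps the heart precursors from meeting at the midline, was at 58.6 and 55.6 CPM in the nexn-/- pools, against 21.8 and 20.4 CPM in the nexn+/+ pools. This gave a log2(FC) of 1.44 (SE 0.106, adjusted p of 0.000949 by edgeR). With each genotype's replicates 1.07-fold apart or less, the difference between genotypes in fn1a was larger than the spread within either. In counts, the ratio of fn1b to fn1a was 0.919 and 0.976 in nexn-/- and 0.68 and 0.612 in nexn+/+ libraries, so the share of fn1b among fibronectin counts was higher in both nexn-/- libraries. This ratio was not tested, because a two-sided exact permutation test of 2 libraries against 2 gives no p below 0.333.

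The size of the change of fn1b depended on whether gene length was taken into account. The effective length, which the counting program weights by the isoforms it estimates, was 3820 and 3270 nucleotides for fn1b in the nexn-/- libraries but 7933 and 4876 nucleotides in the nexn+/+ libraries. For fn1a it lay between 8502 and 8525 nucleotides in the 4 libraries. A length ratio between genotypes as far from 1 as that of fn1b was found for 13 of 11955 genes (0.109%) with at least 100 counts and 1 TPM in every library. This ratio rested largely on nexn+/+ replicate 1. The nexn+/+ lengths lay further from each other than nexn+/+ replicate 2 lay from either nexn-/- library. TPM values (transcripts relative to all transcripts, scaled to length) were accordingly 16.6 and 18.99 for fn1b in nexn-/- and 1.76 and 2.87 in nexn+/+ embryos, a 7.68-fold difference of the means against 3.96-fold in CPM. With effective length as an offset the log2(FC) was 2.80 and fn1b was still called. Which fn1b isoforms carried the reads was not analysed here. In the GRCz12tu assembly fn1b overlaps atic, a gene of purine synthesis, at 37.2 and 36.4 CPM in the nexn-/- pools, against 25.8 and 22.8 CPM in the nexn+/+ pools. Like fn1b, atic was called higher (log2(FC) 0.60, adjusted p of 0.0082 by edgeR). The overlap was read from the spans of the genes, and whether they share exons was not examined. Reads from a stretch shared by genes on opposite strands cannot be told apart without strand. The strand setting of the counting is not given in the sources used here. The counts of fn1b were whole in every library, and whether reads of atic entered them was not tested.

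**Figure D2:**
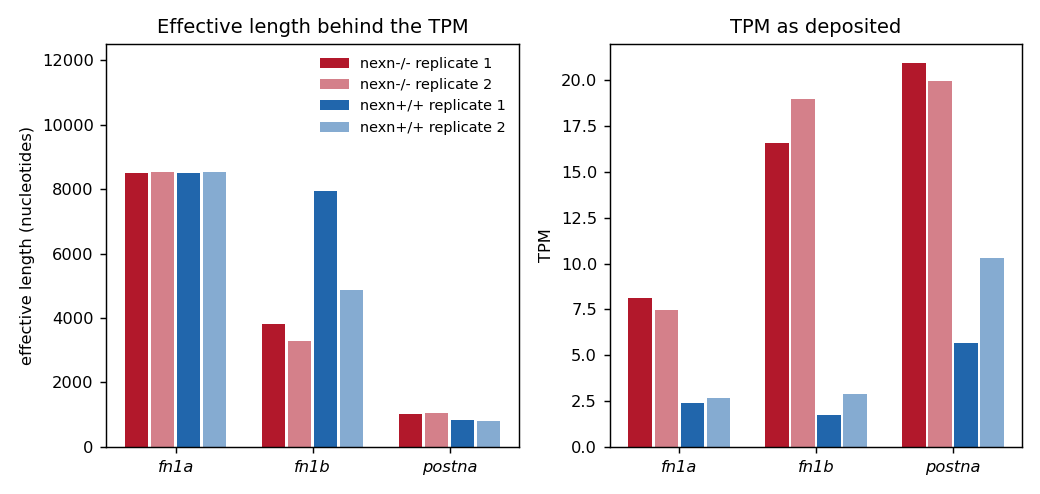
Effective length (left, nucleotides) and TPM as deposited (right) of fn1a, fn1b and postna in the 2 nexn-/- libraries (red) and the 2 nexn+/+ libraries (blue). For fn1a the length was alike in all libraries, whereas for fn1b it was 3820 and 3270 nucleotides in nexn-/- and 7933 and 4876 in nexn+/+ libraries, and for postna it was longer in nexn-/- libraries.

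Periostin and its relative tgfbi share fasciclin domains, bind collagen and fibronectin, and in mammals are induced by TGF-beta. All 3 genes rose. The minor copy postna (ENSDARG00000043806) was at 18.4 and 18.1 CPM in the nexn-/- pools, against 4.99 and 7.36 CPM in the nexn+/+ pools. Its log2(FC) was 1.56 (SE 0.206, adjusted p of 0.00246 by edgeR), and it rested on 409 and 414 counts in the nexn-/- pools, against only 88 and 146 counts in the nexn+/+ pools. The groups did not overlap, but the nexn+/+ replicates were 1.48-fold apart. The effective length of postna was 1031 and 1038 nucleotides in nexn-/- and 829 and 802 in nexn+/+ libraries, and with it as an offset the log2(FC) was 1.21 and postna was still called.

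The major copy postnb (ENSDARG00000104267) had 1313 and 1215 CPM in the nexn-/- pools, against 854 and 687 CPM in the nexn+/+ pools. With a log2(FC) of 0.71 (SE 0.161, adjusted p of 0.0153 by edgeR) it rose by a smaller factor than postna. In counts, postnb exceeded postna 71.6- and 67.1-fold in nexn-/- and 171- and 93.4-fold in nexn+/+ libraries. The TPM ratios, at 33.4 and 31.3 against 61.0 and 32.1, set only nexn+/+ replicate 1 clearly apart, and this difference between the copies was not tested. For tgfbi (ENSDARG00000071586), 342 and 325 CPM in nexn-/- stood against 222 and 157 CPM in nexn+/+ embryos. Its log2(FC) was 0.81 (SE 0.178, adjusted p of 0.0137 by edgeR), and the lowest nexn-/- library was 1.46-fold above the highest nexn+/+ library, similar to the 1.42-fold between the nexn+/+ replicates.

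Lumican and decorin both rose. Levels of lum (ENSDARG00000045580) were 187 and 165 CPM in the nexn-/- pools, against 80.8 and 78.9 CPM in the nexn+/+ pools, a log2(FC) of 1.14 (SE 0.116, adjusted p of 0.00138 by edgeR). Decorin (dcn, ENSDARG00000012066), which in mammals also binds TGF-beta, was at 179.6 and 168 CPM in the nexn-/- pools, against 83.6 and 61.5 CPM in the nexn+/+ pools, a log2(FC) of 1.26 (SE 0.162, adjusted p of 0.00229 by edgeR). Both genes were at least 2.01-fold higher in the lowest nexn-/- than in the highest nexn+/+ library. The counts of lum relative to dcn were 1.04 and 0.982 in nexn-/- and 0.967 and 1.28 in nexn+/+ libraries, so the ranges of this ratio overlapped. In the gene order of the GRCz12tu assembly lum lies between kera and dcn. Keratocan (kera), a corneal proteoglycan of the same family, was at 94.6 and 85.0 CPM in the nexn-/- pools, against 37.3 and 40.0 CPM in the nexn+/+ pools, a log2(FC) of 1.22 (SE 0.112, adjusted p of 0.00128 by edgeR).

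The rise of thbs4b was less certain in size. Thrombospondin 4 is a protein of the junctions between muscle and tendon, and in zebrafish thbs4b (ENSDARG00000020072) is needed to keep muscle fibres attached. It was at 106 and 110.3 CPM in the nexn-/- pools, against 61.9 and 34.0 CPM in the nexn+/+ pools, a log2(FC) of 1.18 (SE 0.255, adjusted p of 0.0133 by edgeR). The 1.82-fold difference between the nexn+/+ replicates was the largest of the 10 genes. It exceeded the 1.72-fold step from the highest nexn+/+ to the lowest nexn-/- library, though not the 2.26-fold difference between the genotypes. Without nexn+/+ replicate 2 the log2(FC) was 0.80, and without nexn+/+ replicate 1 it was 1.67. Fast muscle markers, too, were higher in nexn+/+ replicate 1 than in nexn+/+ replicate 2. Their summed level over 15 genes was 56600 and 60300 CPM in the nexn-/- pools, against 102000 and 48000 CPM in the nexn+/+ pools, with 1 called higher and 0 lower and no marker at 0, and their part in the value of thbs4b was not tested. The most abundant of them, the parvalbumin gene pvalb2, had 10532 and 11525 CPM in the nexn-/- pools, against 17322 and 8354 CPM in the nexn+/+ pools.

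Tenascin C is deposited in tendon and in tissue under repair. The gene tnc (ENSDARG00000021948), named tncb in GRCz12tu, had 137 and 134 CPM in the nexn-/- pools, against 89.2 and 99.4 CPM in the nexn+/+ pools. Its log2(FC) of 0.53 lay just past the limit of 0.5 (SE 0.111, adjusted p of 0.0122 by edgeR). The call was lost with effective length as an offset (0.46) and without nexn+/+ replicate 1 (0.45), since the value then fell short of the limit. The collagen-binding glycoprotein sparc (ENSDARG00000019353) was at 1184 and 1165 CPM in the nexn-/- pools, against 929.7 and 772 CPM in the nexn+/+ pools. The 2 groups did not overlap, but with a log2(FC) of 0.47 (SE 0.151, adjusted p of 0.0525 by edgeR) sparc was just outside both limits. It was past both with library size alone (0.62), the upper quartile (0.57), scaling to rpl13 (0.71) and effective length as an offset (0.55), and without nexn+/+ replicate 1 (0.61). Over the 10 other settings the adjusted p of sparc ranged between 0.00406 and 0.112, and with DESeq2 (0.02) and limma-voom (0.0282) it was under 0.05 while the log2(FC) stayed short of 0.5. In GRCz12tu tnc, matched there only through a synonym, overlaps traf2a, and postnb overlaps nbeab. Neither partner was called, with levels of at most 6.56 CPM in any library. Long noncoding RNA genes overlap fn1a, sparc, postna and thbs4b in that assembly, and no values were found for them under their names there.

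**Figure D3:**
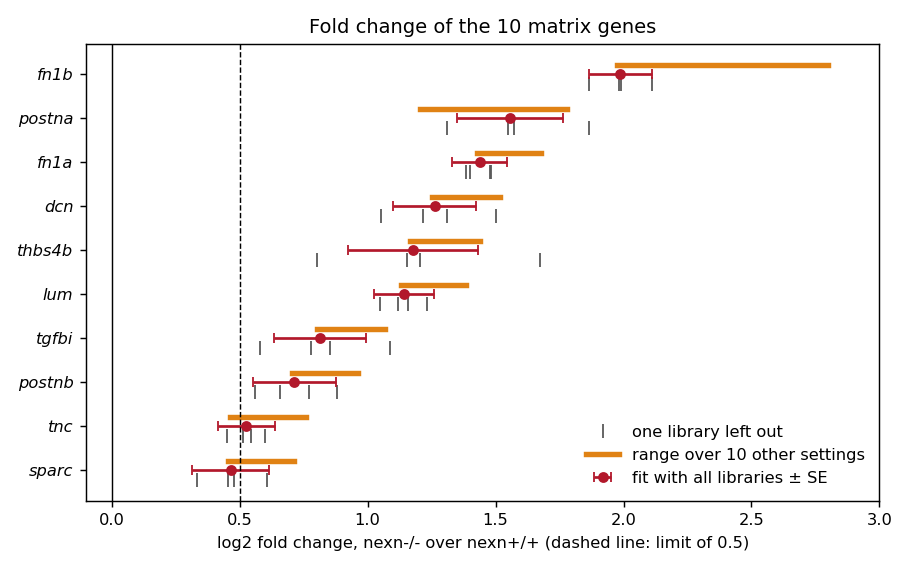
Log2(FC) of each gene, nexn-/- over nexn+/+, with its standard error (red), its range over 10 other settings (orange) and its value with each library left out in turn (grey ticks). All values lie above 0, which for the grey ticks was largely fixed by the order of the libraries. The estimates of sparc and tnc straddle the limit of 0.5, and thbs4b has the widest span when a library is left out, from 0.80 to 1.67.

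Most counts of the group were those of sparc and postnb. Together they took 69.8% of the counts of the 10 genes in each of the nexn-/- pools, against 75.5% and 75.6% in the nexn+/+ pools. All 10 genes summed to 0.381% and 0.355% of all counts in nexn-/- and to 0.208% and 0.197% in nexn+/+ embryos. Per length, the order in nexn-/- embryos ran from sparc (1059 and 1042 TPM) and postnb (699 and 626 TPM) to fn1a (8.1 and 7.47 TPM). In between stood tgfbi (145 and 134 TPM), lum (110.3 and 94.9 TPM), dcn (103.7 and 94.8 TPM), thbs4b (40.2 and 40.7 TPM), tnc (28.5 and 26.6 TPM), postna (20.9 and 19.98 TPM) and fn1b. Only lum and dcn overlapped among neighbours in this order.

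In nexn+/+ embryos sparc (642 and 620 TPM), postnb (347 and 330.1 TPM) and tgfbi (75.8 and 63.6 TPM) were again the highest. The values of lum (36.8 and 39.5 TPM) and dcn (37.6 and 32.9 TPM) overlapped. So did those of tnc (14.4 and 21.5 TPM) and thbs4b (18.8 and 12.3 TPM), and at the low end those of fn1a (2.42 and 2.69 TPM) and fn1b, with postna (5.69 and 10.28 TPM) above them. In TPM, fn1b therefore stood above fn1a in both nexn-/- libraries, whereas in nexn+/+ embryos the 2 genes could not be ordered. Only nexn+/+ replicate 1 had fn1b below fn1a (TPM ratio 0.727, against 1.07 in nexn+/+ replicate 2). In counts fn1b was below fn1a in every library, so its position in TPM rests on its estimated effective length.

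The other genes of the matrix were examined in 9 lists, put together by function with earlier results of these data known. Of their 186 distinct tested genes 123 were called higher (66.1%) and 3 lower, against the 16.7% and 13.9% of all tested genes. Among relatives of the matricellular genes 14 of 22 tested genes were called higher and 1 lower, with a median log2(FC) of 1.07. The thrombospondin gene thbs2b was at 10.8 and 11.5 CPM in the nexn-/- pools, against 1.47 and 1.91 CPM in the nexn+/+ pools, with a log2(FC) of 2.70 (SE 0.231, adjusted p of 0.00117 by edgeR). The log2(FC) of thbs3b was 2.58, that of tnxba, a tenascin X gene, 2.46, and that of ccn6, of the CCN family, 1.86. Counts of tnxba were 518 and 490 in the nexn-/- pools, against 29 and 126 in the nexn+/+ pools, and thus varied more in nexn+/+. The testican gene spock3, which encodes a Sparc-related proteoglycan mainly of the nervous system, was the one that fell, to 84.1 and 69.8 CPM in the nexn-/- pools, against 132 and 126 CPM in the nexn+/+ pools, with a log2(FC) of −0.75 (adjusted p of 0.00562 by edgeR). This call was lost with scaling to rpl13. The closest relative of sparc in the list, sparcl1, was not called, with 22.1 and 23.9 CPM in the nexn-/- pools, against 27.4 and 29.5 CPM in the nexn+/+ pools.

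Of 12 other small leucine-rich proteoglycans 9 were called higher and 0 lower, with a median log2(FC) of 1.1. Besides kera they included prelp (log2(FC) 2.44), aspn (1.13) and epyc (1.07). Epiphycan (epyc), a proteoglycan of cartilage in mammals, was at 163 and 174 CPM in the nexn-/- pools, against 106 and 54.0 CPM in the nexn+/+ pools. The nexn+/+ replicates of epyc thus differed more than those of thbs4b.

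Most of the listed integrin and syndecan genes, among them receptors for fibronectin, were higher in nexn-/- embryos. Of 16 such genes 13 were called higher and 0 lower, with a median log2(FC) of 1.48. Not called were sdc4 (log2(FC) 0.41), itgb5 (0.11) and itgb8 (−0.15), with itgb5 and itgb8 overlapping between genotypes. The beta1 integrin gene itgb1b had 24.1 and 23.0 CPM in the nexn-/- pools, against 4.93 and 5.80 CPM in the nexn+/+ pools, a log2(FC) of 2.13 (SE 0.154, adjusted p of 0.000949 by edgeR). For itgb1b.1 (log2(FC) 2.44) some counts were not whole, so some of its reads also fitted other genes, and its value is less certain. The nexn+/+ replicates of itgb1b.1 also lay far apart, at 10.4 and 3.73 CPM (SE of the log2(FC) 0.393). So did those of itgb3a, at 6.74 and 1.97 CPM, and its log2(FC) of 2.31 had an SE of 0.453. The log2(FC) of itga8, whose product binds fibronectin and nephronectin, was 2.02. Of the adaptors that link integrins to actin inside the cell 7 of 17 were called higher and 0 lower with a median log2(FC) of 0.59, among them the kindlin genes fermt2 (1.93) and fermt1 (1.26), vclb, a vinculin gene (1.75), and parvaa, a parvin gene (1.08). The adaptor count was 11 with the libraries scaled to rpl13 and also without nexn+/+ replicate 1, and 5 without nexn+/+ replicate 2.

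Structural partners in the matrix rose in large part. Of 34 collagens and collagen-processing genes 31 were called higher and 0 lower (median log2(FC) 1.18). These genes carry 33 symbols, as col6a3 stands for a further gene with few counts. Both col6a3 genes were called higher, and their counts were not all whole. The collagen XII gene col12a1b was at 33.8 and 30.9 CPM in the nexn-/- pools, against 7.59 and 3.68 CPM in the nexn+/+ pools (log2(FC) 2.53), and the log2(FC) of col6a4a was 2.24 and that of the lysyl oxidase relative loxl2a 2.67. For pcolceb, of the family of procollagen C-proteinase enhancers, the rise rested on 235 and 229 counts in the nexn-/- pools, against 13 and 9 counts in the nexn+/+ pools. Of 22 genes of elastic fibres and hyaluronan matrix 18 were called higher and 0 lower, with a median log2(FC) of 1.57. The fibrillin gene fbn2b, which maintains the fin fold, had 58.7 and 59.4 CPM in the nexn-/- pools, against 9.69 and 8.72 CPM in the nexn+/+ pools (log2(FC) 2.68, SE 0.116, adjusted p of 0.00039 by edgeR). The hyaluronan link protein gene hapln1b and the emilin gene emilin1b followed, at log2(FC) 2.61 and 2.38. A second emilin gene, emilin3a, had 327 and 364 counts in nexn-/- and 3 and 6 counts in nexn+/+ embryos, too few for a firm fold.

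Basement membrane genes were called higher for 15 of 18 and lower for 0, with a median log2(FC) of 1.06. Among them were frem1a (2.66), hspg2, the perlecan gene (2.00), and the laminin genes lamb1a (1.63) and lamc1 (1.47). In the TGF-beta pathway 8 of 25 genes were called higher and 1 lower, with a median log2(FC) of 0.38. The latent binding protein gene ltbp1 (1.47), the receptor gene tgfbr2b (1.2), the ligand gene tgfb1a (1.01) and the inhibitory smad6b (0.98) rose, whereas smad7, also inhibitory, fell to 11.8 and 14.9 CPM in the nexn-/- pools, against 21.1 and 21.4 CPM in the nexn+/+ pools. The call of smad7 was lost with library size alone and with scaling to rpl13. Of 20 metalloproteinases and inhibitors 8 were called higher and 1 lower (median log2(FC) 0.59). The membrane-bound collagenases mmp14a and mmp14b had log2(FC) values of 1.29 and 1.32, and those of mmp11b and mmp15a were 2.68 and 2.25. The symbol mmp15a is carried by a further gene near 0 counts, and the counts of both were not all whole. Expression of mmp17b fell (log2(FC) −0.97). The count of metalloproteinases and inhibitors called lower was 3 with scaling to rpl13. With either nexn+/+ library left out, more genes were called lower in some of these lists, and also over all genes tested.

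**Figure D4:**
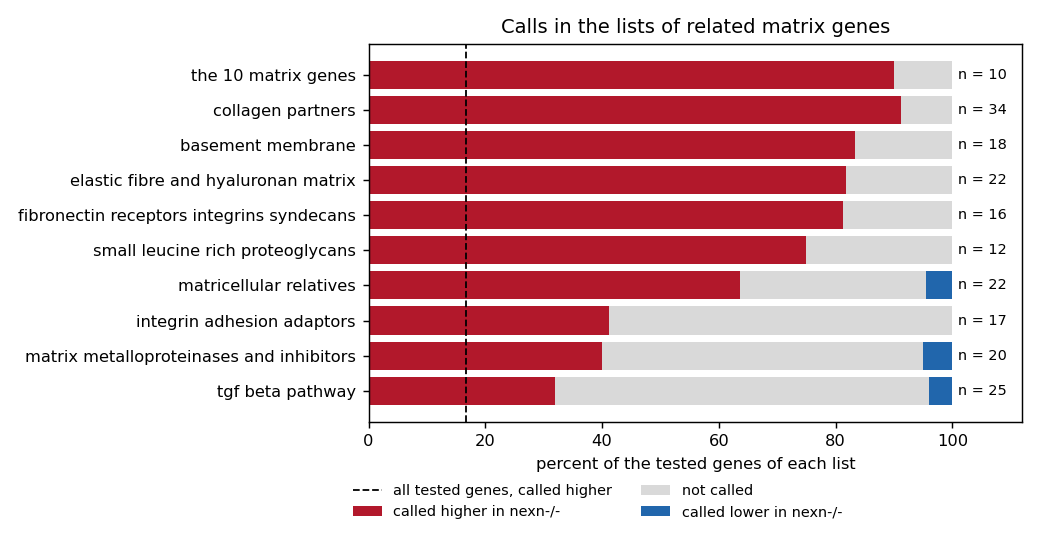
Percent of the tested genes of each list that were called higher (red), not called (grey) or called lower (blue) in nexn-/- embryos, with the share of all tested genes called higher (16.7%) as a dashed line. The shares called higher run from 32% of the TGF-beta pathway to 91.2% of the collagen list, and 9 of the 10 matrix genes were called.

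Markers of tissues that could be the source of these transcripts were measured in the same libraries. The counts below stand against 16.7% of all tested genes called higher and 13.9% lower. Of 14 markers of mesenchyme and fibroblasts 11 were called higher and 0 lower, and they summed to 493 and 486 CPM in nexn-/- and to 284 and 289 CPM in nexn+/+ embryos. Of 8 tested tenocyte and myoseptum markers 5 were called higher and 0 lower, with sums of 304 and 289 against 227 and 144 CPM. The gene with most counts was cxcl12a among the mesenchymal markers, not called at 103 and 91.5 CPM in the nexn-/- pools, against 77.2 and 71.7 CPM in the nexn+/+ pools, and ccn2a among those of tenocytes, which rose (log2(FC) 0.93). For fin fold markers the counts were 5 higher and 1 lower of 8, with sums of 805 and 801 against 457 and 263 CPM, most of it and1 and and2, genes of the actinotrichia that stiffen the fin fold. Cartilage markers (11 of 14 higher, 0 lower) summed to 7360 and 7590 against 5180 and 3270 CPM, and notochord markers (4 of 8 higher, 0 lower) to 744 and 723 against 522 and 265 CPM. Of their most abundant genes, and2 rose (log2(FC) 1.34, SE 0.325, adjusted p of 0.0198 by edgeR), whereas col2a1a of cartilage (0.71) and matn3a of the notochord list (0.68) were not called. In each of these lists the sum was higher in both nexn-/- libraries, an order found for 36.4% of single tested genes. The sums partly repeat the matrix lists. The marker ccn2a, at 118 and 120 CPM in the nexn-/- pools, against 70.7 and 54.5 CPM in the nexn+/+ pools, is also counted among the matricellular relatives. Likewise epyc is counted both among the proteoglycans and among the notochord markers. Many cartilage markers are collagen genes, while matn3a, and1 and and2 also encode matrix proteins. Such markers cannot tell a change of tissue from a change of matrix genes.

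The lists of epidermis (5 of 12 higher), endothelium (5 of 9 higher, 1 lower), epicardium and valves (6 of 9 higher) and leukocytes (5 of 8 higher) also had higher sums in both nexn-/- libraries. Of all tested genes 16.7% were called higher, and 36.4% had this order of the libraries. Of their most abundant genes lyz of leukocytes rose (log2(FC) 1.65), while krt4 of epidermis (0.53), cdh5 of endothelium (0.46) and aldh1a2 of the epicardium list (0.27) were not called. The largest shifts were those of heart muscle, where 7 of 7 tested markers were called higher, with sums of 68.7 and 71.1 CPM in the nexn-/- pools, against 9.23 and 6.5 CPM in the nexn+/+ pools, and of liver. In mammals the liver secretes plasma fibronectin, and 10 of 10 tested liver markers were called higher, with sums of 1360 and 1410 CPM in the nexn-/- pools, against 149 and 73.9 CPM in the nexn+/+ pools. The most abundant marker was myl7 in heart muscle, at 19.6 and 17.9 CPM in the nexn-/- pools, against 1.47 and 0.706 CPM in the nexn+/+ pools, and apoa2 in liver, at 703 and 738 against 62.6 and 29.8 CPM. Lens and eye markers, of which 1 of 8 was called higher and 0 lower, were led by crybb1 (log2(FC) −0.08, not called) and overlapped between genotypes, at 2410 and 2620 against 1720 and 3070 CPM. No listed marker was at 0 in all libraries. The part of these tissues in the levels of the 10 genes was not tested.

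**Figure D5:**
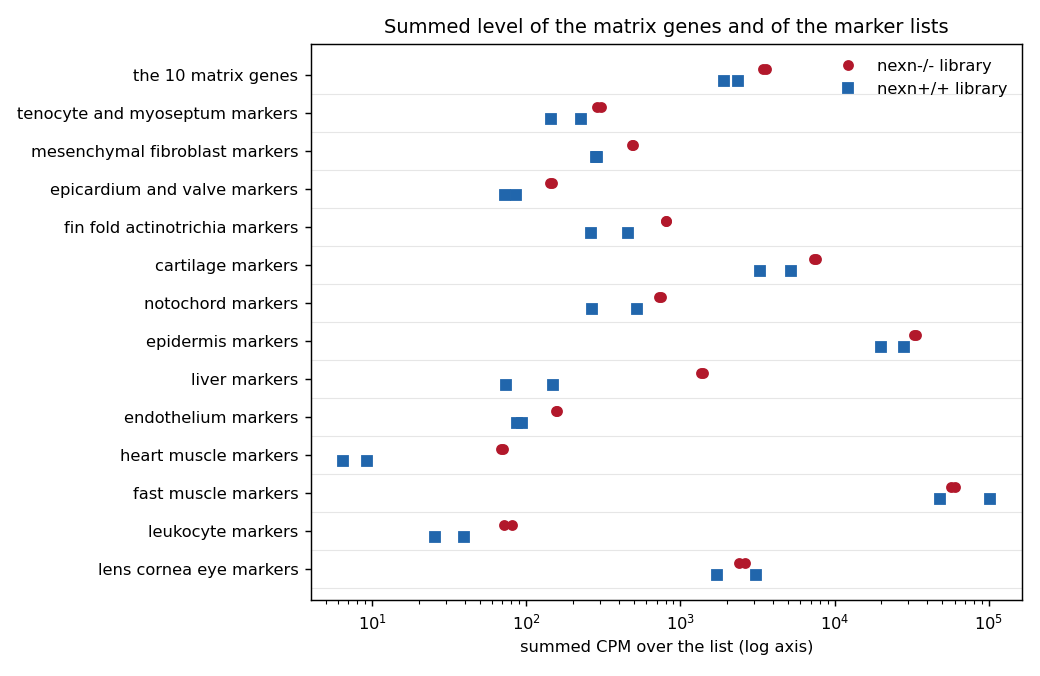
Summed CPM, on a log axis, of the 10 matrix genes and of 13 marker lists in the nexn-/- libraries (red circles) and the nexn+/+ libraries (blue squares). The matrix genes summed to 3580 and 3412 CPM in the nexn-/- pools, against 2363 and 1930 CPM in the nexn+/+ pools, and only the sums of fast muscle and of lens and eye overlapped between genotypes. Of single tested genes 36.4% had both nexn-/- libraries above both nexn+/+ libraries.

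The replicates differed more in nexn+/+ than in nexn-/- embryos for 9 of the 10 genes, lum being the exception. In 8 of the 10 the higher nexn+/+ value was that of replicate 1, the exceptions being postna and tnc. When a nexn+/+ library was left out, the spread came from the closer nexn-/- pair alone, and the remaining nexn+/+ library was assumed to vary alike. Without nexn+/+ replicate 1, 9 of the 10 genes were called, at a median log2(FC) of 1.23, but so were 8560 genes of the whole table, with 23.5% of tested genes called higher. Without nexn+/+ replicate 2, 9 were called at a median of 0.93, among 7450 calls in the whole table and 20.2% of tested genes called higher. When a nexn-/- library was left out, 0 of the 10 genes and 4 genes of the whole table were called by edgeR, because the spread then came from the nexn+/+ pair alone, while the medians of the 10 genes were 1.13 and 1.19. All 10 genes kept a log2(FC) above 0 with each library left out. Both nexn-/- libraries lay above both nexn+/+ libraries for each gene, so leaving out 1 library could hardly reverse a sign. The kept direction is thus no further evidence.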

How the data were processed

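Members and gene lists were chosen with earlier results of these data known. The submitters' processing notes name STAR, RSEM and the GRCz11 assembly, and versions, annotation release and strand setting are not given in the sources used here. The authors deposited estimated counts per gene, not normalized, with TPM values scaled to library and gene length and FPKM values that served here only to compute effective length. Column headings of the 4 tables carry the same library name, so each table was assigned by its deposition record. All 40 counts of the 10 genes were whole. Rounded counts were tested with edgeR 4.0.16 in R 4.3.3 (filterByExpr, TMM, quasi-likelihood test, genotype as the only term, Benjamini-Hochberg adjustment over 20312 genes); standard errors are the absolute log2(FC) divided by the root of F. The test was checked on simulated counts, with the same spread in both genotypes and few changed genes. It recovered 61 of 91 genes changed by a log2(FC) of 1 in either direction (67%). Of genes changed by 2 it recovered 107 of 108, and there were 7 false calls. In the real libraries the nexn+/+ replicates differed more than the nexn-/- replicates, which this check does not cover. Named genes were the 10 members, nexn, and the gene of each marker list with most counts. From each pathway list at most 4 called genes of at least 5 CPM with the largest absolute log2(FC) were named. The genes spock3, smad7, mmp17b, sparcl1, sdc4, itgb5, itgb8, col6a3 and and1 were named after their values were seen. Alternatives were DESeq2 1.42.0, limma-voom (limma 3.58.1), other scalings, filters and fold change limits, a replicate block, effective length as an offset, and each library left out. The common biological coefficient of variation was 0.146. The authors' DESeq2 results were not used here, except to give the direction of nexn.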

Additional observations from a re-analysis of the deposited data

How the results depend on the processing

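The log2(FC) kept its direction for each of the 10 genes in all alternatives run. For the fits that left out a library this was largely fixed by the order of the libraries. Calls changed for sparc, which was past both limits with library size alone (0.62), the upper quartile (0.57), the libraries scaled to rpl13 (0.71) and effective length as an offset (0.55), and for tnc, which fell short with effective length (0.46). Other scalings shifted the median log2(FC) of all genes by 0.147 (library size alone), 0.103 (upper quartile) and 0.235 (rpl13), and with rpl13 the median of the 10 genes was 1.41. Over the fits that lacked 1 library each, log2(FC) ranged from 1.39 to 1.48 for fn1a, 1.86 to 2.11 for fn1b, 0.33 to 0.61 for sparc, 1.05 to 1.23 for lum, 1.05 to 1.5 for dcn, 1.31 to 1.86 for postna, 0.56 to 0.88 for postnb, 0.45 to 0.60 for tnc, 0.80 to 1.67 for thbs4b and 0.58 to 1.09 for tgfbi. The median then ranged from 0.93 to 1.23, the number of these genes called higher from 0 to 9 and the calls in the pathway lists from 0 to 144, against 126 with all libraries. The counts of 0 arose without a nexn-/- library, when the spread came from the nexn+/+ pair alone. Without a nexn+/+ library it came from the nexn-/- pair alone, and 8560 or 7450 genes of the whole table were called, so neither kind of fit tests how stable the calls are. The genotypes share replicate numbers, but same-numbered libraries did not deviate together (correlation across genes −0.039), and the numbers were not used for pairing. With the replicate block 9 of the 10 genes were again called and the pathway lists held 130 calls. Over all genes, 3392 were called higher and 2831 lower, and the lower count was 1878 with library size alone and 1466 with rpl13. A log2(FC) limit of 1 left 2218 and 922 genes, and 6 of the 10.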
